A study of Homo sapiens with 6 samples.

Results

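TMEM158 was followed as 1 probe, ILMN_1792455, out of 48803 probes on each of 6 Illumina human HT-12 BeadChip arrays. On these arrays biotin-labelled cRNA binds to beads that carry a gene-specific probe, and each probe gives 1 brightness value. The probe was picked by its identifier because of its levels in these samples, so those levels are given as a description and without a test. The deposited table holds probe identifiers and no gene names, so the name TMEM158 is the one given with the identifier and was not checked against the probe's sequence.

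All samples were stably transfected lines, or control lines, made from H1299. This established human line comes from a non-small cell lung carcinoma, and the labels name its tissue as lung adenocarcinoma. The 4 groups were 2 Ago2 clones, 1 control line for Ago2, 2 Lin-28B clones and 1 control line for Lin-28B. Total RNA came from exponentially growing cells. The labels give neither the vectors nor what the control lines carry, and each clone number was represented by 1 array. Because no other probe could be named here, the transfected genes, the markers of lung tumour cells and those of other cell types were not analysed.

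TMEM158 encodes a transmembrane protein. It was first described as RIS1, for Ras-induced senescence, because its transcript rises when an oncogenic Ras protein drives human fibroblasts into senescence, a lasting growth arrest. It is also known as p40BBP, a binding protein for a small neurotrophic peptide. H1299 cells carry an activating mutation of NRAS and lack p53. LIN28B binds the precursors of the let-7 microRNAs and keeps them from maturing. These microRNAs repress Ras family transcripts among others. AGO2 is the Argonaute protein that holds microRNAs in the silencing complex and can cleave a matched target.

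In the RefSeq annotation of GRCh38.p14 the gene lies on the minus strand of chromosome 3, from 45224466 to 45226287, a span of 1822 bases. The nearest protein-coding genes are CDCP1, 77984 bases away towards lower coordinates, and LARS2, 162289 bases away towards higher coordinates. Their probes could not be identified here. The 250 bases before the gene start (RefSeq, chr3:45226288-45226537, minus strand) are shown as a fixed window at the start of the gene whose level differed between the lines. Capitals mark GC boxes.

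TMEM158, 250 bases before the gene start: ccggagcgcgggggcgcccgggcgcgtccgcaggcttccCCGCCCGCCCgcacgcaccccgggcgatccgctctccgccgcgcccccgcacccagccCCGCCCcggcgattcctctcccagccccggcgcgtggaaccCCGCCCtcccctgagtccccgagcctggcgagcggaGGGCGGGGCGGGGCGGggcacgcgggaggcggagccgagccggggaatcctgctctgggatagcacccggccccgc

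A GC box was searched as GGGCGG on both strands, and 7 matches were found, starting 211, 207, 153, 112, 76, 71 and 66 bases before the gene start. Those at 211 and 207 share letters with each other, as do those at 76, 71 and 66. At least 1 such match was present in 42.3% of 27305 such windows before gene starts, called promoters below. G and C made up 82.4% of the stretch, against a median of 58.0% over all promoters, and 1.25% of promoters held more. The stretch had 39 CpG pairs, against a median of 11. The letters of an AP-1 site (TGANTCA), a cAMP response element (TGACGTCA) and a form of the ETS site (CCGGAA) were not in this window. Nor were those of an E-box (CACGTG) and a TATA box (TATAAA), on either strand. Shorter or variant forms of these sites were not searched. The letters searched were present in 6.60%, 1.77%, 14.8%, 6.49% and 11.1% of promoters, in that order. Binding at this stretch was not measured in these samples.

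The TMEM158 probe was bright on every array, and its level differed strongly between the lines. Its deposited intensity was 15358 and 14930 in Ago2 clones 1 and 2, against 1597 in the control for Ago2. It was 3543 and 4359 in Lin-28B clones 1 and 2, against 10030 in the control for Lin-28B. The level was thus highest in the Ago2 clones and lowest in their control, while the Lin-28B clones lay below theirs. No array of one group fell within the range of another. Such a separation, in any order of the 4 groups, was found for 17.9% of the 28035 probes kept for comparison below. From bulk RNA, fewer cells with the transcript and less of it per cell cannot be told apart.

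**Figure D1:**
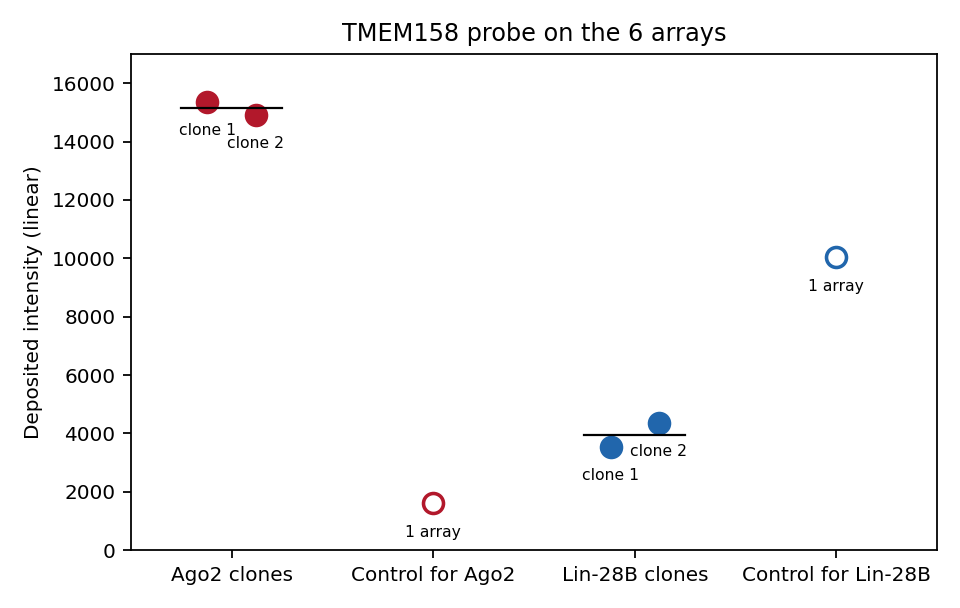
Deposited intensity of the TMEM158 probe on a linear axis. Filled points are clones, open points are the single control arrays, and lines are the means of 2 clones (15144 for Ago2 and 3951 for Lin-28B); the 2 control arrays, at 1597 and 10030, lie on opposite sides of the Lin-28B clones.

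The rank of the probe on its own array shifted in the same way, and this measure does not depend on any scaling between arrays. In Ago2 clones 1 and 2, 141 and 140 probes were brighter, against 2119 in the control for Ago2. In Lin-28B clones 1 and 2, 962 and 732 probes were brighter, against 232 in the control for Lin-28B. The transcript was therefore among the brightest 0.289% and 0.287% of probes in the Ago2 clones, against 4.34% in their control. The shares were 1.97% and 1.50% in Lin-28B clones 1 and 2, against 0.475% in their control. Even on the dimmest array the probe measured 23.8 times the array median, and on Ago2 clone 1 it measured 249 times the median. Both Ago2 clones and the control for Lin-28B lay above the 99th percentile of their array, while the Lin-28B clones and the control for Ago2 lay between the 95th and the 99th.

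**Figure D2:**
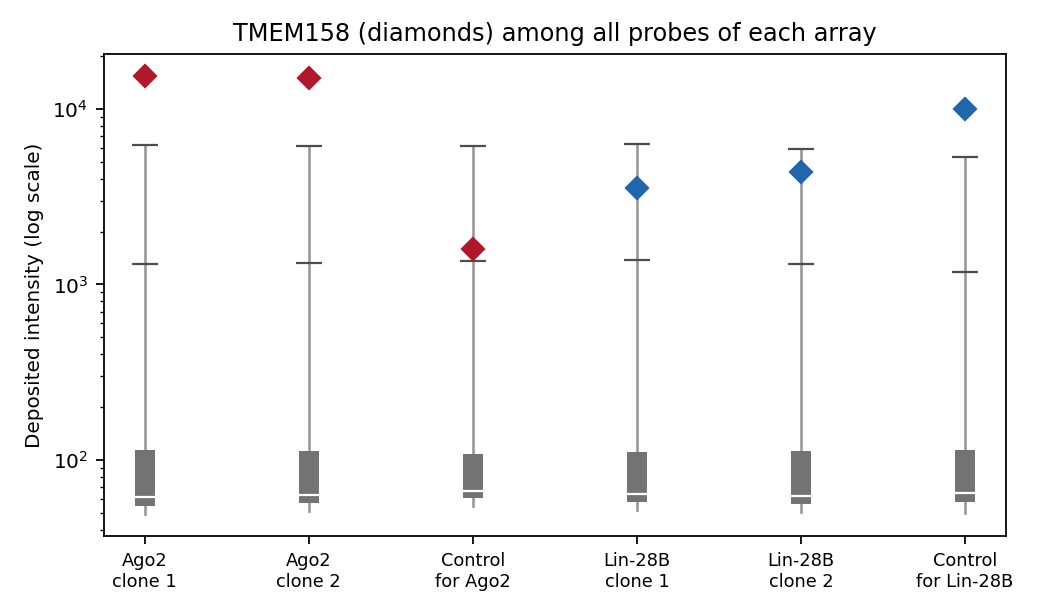
The TMEM158 probe (diamonds) within the intensities of all 48803 probes of each array, on a log axis. Thin lines run from the 5th to the 99th percentile, with ticks at the 95th and the 99th, boxes span the 25th to the 75th, and white ticks are medians (61.7 to 67.04); the diamond lies above the 99th percentile on 3 of the 6 arrays.

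For comparison across arrays, each intensity plus 32 was put on the log2 scale and quantile normalization was applied. Of all probes, 28035 exceeded the median of the array on 2 or more arrays and were kept. TMEM158 was among those kept. Log2 values and folds below are on this scale. The normalized level was 13.86 and 13.87 in Ago2 clones 1 and 2, against 10.62 in the control for Ago2. It was 11.71 and 12.07 in Lin-28B clones 1 and 2, against 13.39 in the control for Lin-28B. The Ago2 clones differed by 0.0055, closer than the median of 0.12 over kept probes, and their order was turned round by the normalization. The log2 of their deposited intensity, 13.91 in clone 1 and 13.87 in clone 2, showed a wider gap. The Lin-28B clones differed by 0.36, a wider gap than that of 91.8% of kept probes.

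The first comparison set the Ago2 clones against their control. TMEM158 averaged 13.87 ± 0.0039 in the Ago2 clones (SD, n = 2) and 10.62 in the 1 control, a log2 difference of 3.25, or 9.50-fold. The ratio of deposited intensities was 9.62 for clone 1 and 9.35 for clone 2. In this comparison 179 kept probes, 0.638%, were at least 2-fold higher in both clones. TMEM158 was one of them, and the probe had been chosen because of its levels in these samples. That choice bears on the comparisons below as well. Ranked by the mean of both clones, 2 kept probes rose further, up to 3.52, and 4 differed further in either direction. Ranked by the smaller of the 2 clone differences, none rose further than TMEM158, whose clones lay so close together after normalization. The median size of the difference over kept probes was 0.14.

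The second comparison set the Lin-28B clones against their control. TMEM158 averaged 11.89 ± 0.26 in the Lin-28B clones (SD, n = 2) and 13.39 in the 1 control, a log2 difference of -1.50. The control was thus 2.83-fold above the clones. Taken singly, clones 1 and 2 differed from the control by -1.68 and -1.32. Their own gap was 0.36, which does not measure the spread of the single control. Of the kept probes, 376, or 1.34%, were at least 2-fold lower in both clones, and TMEM158 was one of them. This difference was less extreme than that of the Ago2 comparison, since 123 kept probes had a larger fall and the 99th percentile of the size was 1.41.

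The 2 transfections could also be set against each other without the controls. The Lin-28B clones averaged 11.89 and the Ago2 clones 13.87, a log2 difference of -1.98, so that the level in the Ago2 clones was 3.94-fold higher. The 4 pairs of clones gave differences from -2.16 to -1.80. At least 2-fold lower levels in all 4 pairs were found for 5 kept probes, 0.0178%, TMEM158 included. No other kept probe differed further in either direction, and the next in the same direction stood at -1.77. That place depended on the clones: 7 probes differed further without Ago2 clone 1, 6 without Ago2 clone 2, 4 without Lin-28B clone 1 and 0 without Lin-28B clone 2.

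The 2 control lines differed for TMEM158 by nearly as much as the Ago2 clones and their control. The control for Lin-28B stood at 13.39 and the control for Ago2 at 10.62, a log2 difference of 2.77, or 6.83-fold. Each is 1 array, so this gap has no spread of its own. At least 2-fold higher levels in the control for Lin-28B were found for 1265 kept probes, 4.51%, and 28 probes differed further than TMEM158 in that direction. Because each transfection was compared with its own control, the size of both changes rests on these 2 arrays. Set against the other control instead, the Ago2 clones were 0.48 log2 units above the control for Lin-28B and the Lin-28B clones were 1.27 above the control for Ago2. The Ago2 change thus kept its direction, with a smaller size, and the Lin-28B change turned from lower to higher. What sets the control lines apart was not tested.

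**Figure D3:**
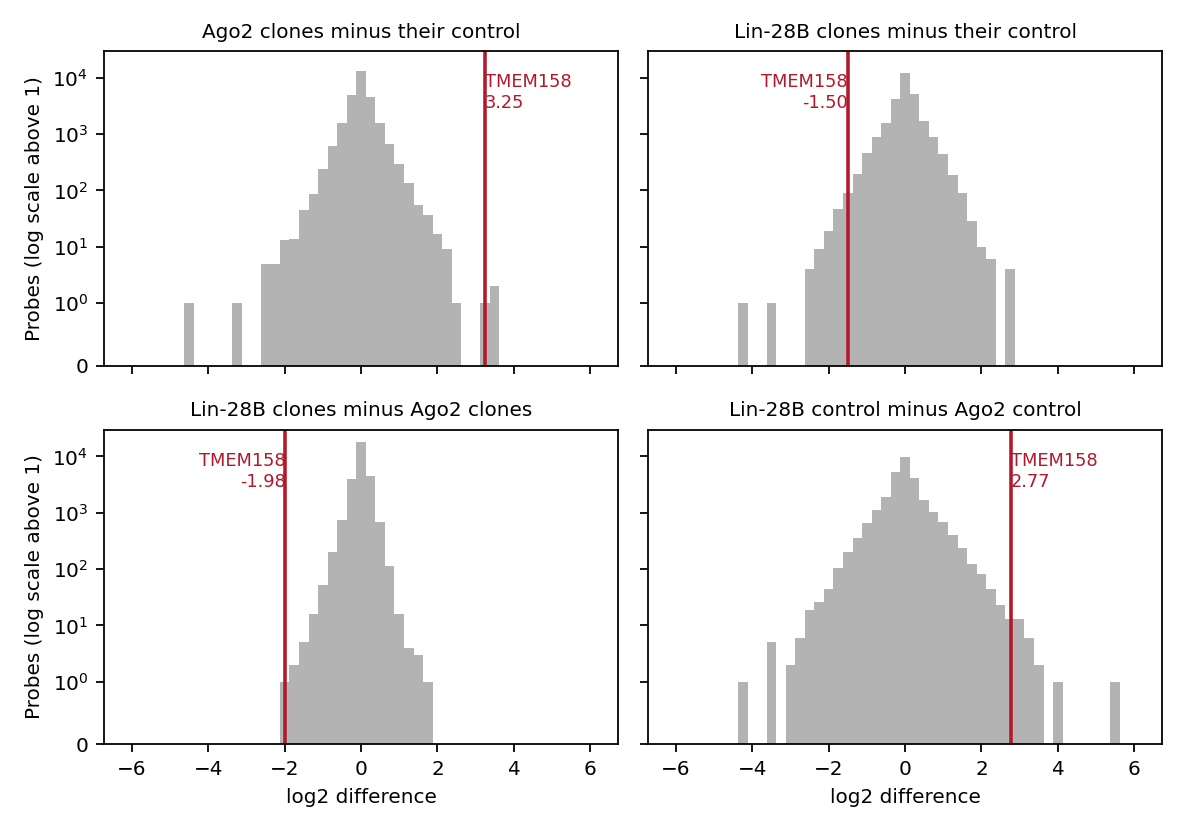
Histograms of log2 differences over the 28035 kept probes in 4 comparisons, in bins 0.25 wide, with the number of probes on an axis that is logarithmic above 1. Red lines mark TMEM158 at 3.25, -1.50, -1.98 and 2.77; in the direct comparison of clones it lies at the lower edge of the distribution.

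Placed on a scale with the control for Ago2 at 0 and the control for Lin-28B at 1, Lin-28B clones 1 and 2 lay at 0.393 and 0.523 and Ago2 clones 1 and 2 at 1.17 and 1.17. Both Lin-28B clones lay between the controls for 1030 of the 1265 probes (81.4%) that were at least 2-fold higher in the control for Lin-28B than in that for Ago2. Both Ago2 clones lay above the control for Lin-28B for 20 of the 1265 probes (1.58%), TMEM158 included. Choosing probes for a high level in the control for Lin-28B favours the first position and disfavours the second, so these shares only place TMEM158 among such probes. The same order of the 4 groups, Ago2 clones, control for Lin-28B, Lin-28B clones and control for Ago2, with no overlap, was found for 157 kept probes (0.560%). Some order without overlap was found for 5032 kept probes (17.9%), and 13 of the 24 possible orders had more probes than that of TMEM158. Between the nearest arrays of successive groups the steps of TMEM158 were 0.47, 1.32 and 1.09. The first of these, between the Ago2 clones and the control for Lin-28B, was the smallest, but it exceeded the gap between the Lin-28B clones. Among the 157 probes, TMEM158 was the only one with every step at least as large as 0.47, a bar that was set from its own values.

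The 2 comparisons with controls share no array. In 38 kept probes (0.136%), both Ago2 clones were at least 2-fold above their control and both Lin-28B clones at least 2-fold below theirs. The opposite combination was found for 24 (0.0856%). Levels were higher in both transfections for 2 probes and lower in both for 2 (0.00713% each). Over kept probes the median size of the difference was 0.20 between the 2 controls and 0.087 between the Lin-28B and Ago2 clones. How far the gap between the controls enters these counts was not tested. Among the 38 probes, 1 had a larger difference between its 2 changes than TMEM158, for which it was 4.75.

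**Figure D4:**
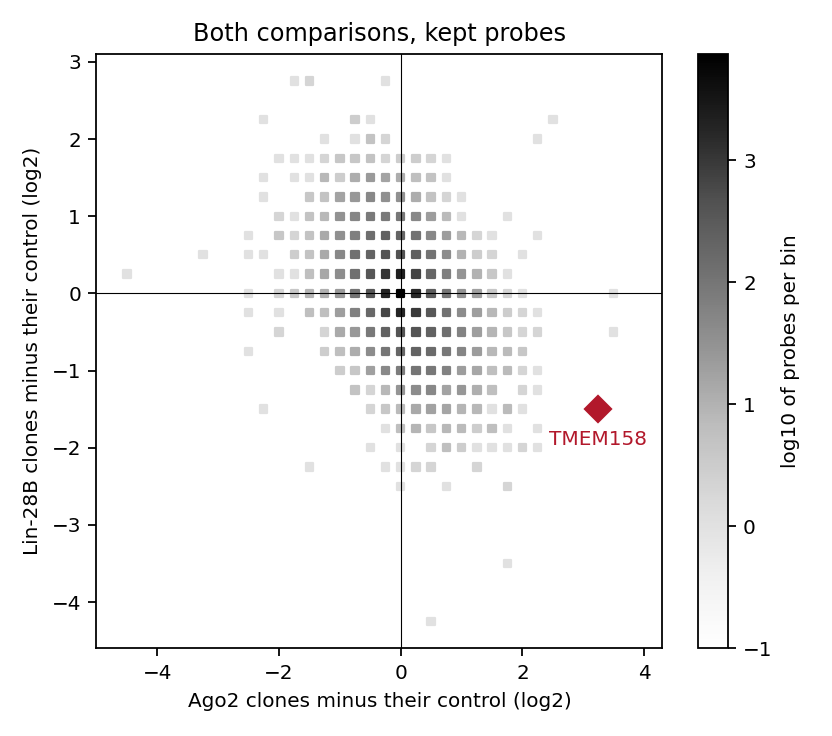
Log2 change in the Ago2 clones (horizontal axis) and in the Lin-28B clones (vertical axis), each against its own control, for the kept probes in bins of 0.25, shaded by the log10 number of probes. TMEM158 (diamond) lies at 3.25 and -1.50, in the lower right and away from the filled bins of other probes.

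Other probes followed TMEM158 across the 6 arrays, mostly with smaller changes. Of 3644 other kept probes with a range of at least 1 on the log2 scale, 69 (1.89%) had a Pearson r of at least 0.9 with TMEM158 and 61 (1.67%) an r of -0.9 or less. These correlations run over 6 arrays and describe the shape of a profile only. The range of TMEM158 itself was 3.25, and 19 kept probes had a larger one.

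The highest r, 0.9996, belonged to ILMN_2130441. It measured 512 and 512 in Ago2 clones 1 and 2, against 214 in the control for Ago2. It measured 297 and 320 in Lin-28B clones 1 and 2, against 427 in the control for Lin-28B. The order of the groups was that of TMEM158, but the changes were smaller, at 1.08 for Ago2 and -0.48 for Lin-28B on the log2 scale. The profile closest in size, by Euclidean distance, was that of ILMN_1779015, with a distance of 1.15 and an r of 0.929. It measured 872 and 1036 in Ago2 clones 1 and 2, against 167 in the control for Ago2. It measured 361 and 409 in Lin-28B clones 1 and 2, against 1378 in the control for Lin-28B. Its changes were 2.23 for Ago2 and -1.94 for Lin-28B. Unlike TMEM158, this probe was highest in the control for Lin-28B.

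The lowest r, -0.976, belonged to ILMN_1694305, a bright probe with the reverse profile. It measured 6642 and 5852 in Ago2 clones 1 and 2, against 13021 in the control for Ago2. It measured 9701 and 8599 in Lin-28B clones 1 and 2, against 6608 in the control for Lin-28B. In deposited intensity that control thus lay between the Ago2 clones, while on the normalized scale it lay above both. The second lowest r, -0.975, belonged to ILMN_1668540. It measured 1017 and 1111 in Ago2 clones 1 and 2, against 2600 in the control for Ago2. It measured 1907 and 1425 in Lin-28B clones 1 and 2, against 1126 in the control for Lin-28B. Both reverse profiles were highest in the control for Ago2, where TMEM158 was lowest.

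**Figure D5:**
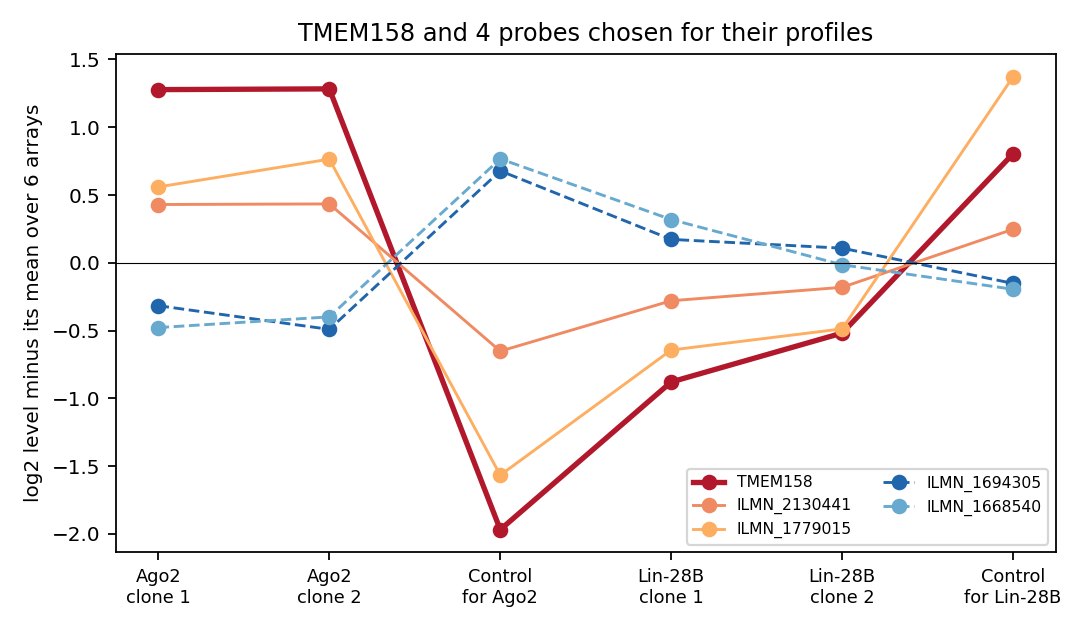
Normalized log2 level minus its mean over the 6 arrays for TMEM158 (thick line), 2 probes with like profiles (solid) and 2 with reverse profiles (dashed); lines join arrays only to guide the eye. ILMN_2130441 follows the order of TMEM158 with a range of 1.09 against 3.25.

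Tests across the whole table served as the background of these values. In limma with Benjamini-Hochberg adjustment over the kept probes, an adjusted p of 0.05 was passed by 0 probes (0%) for the Ago2 clones against their control, where 4239 had an unadjusted p under 0.05. It was passed by 463 (1.65%) for the Lin-28B clones against their control. It was passed by 0 (0%) for the Lin-28B clones against the Ago2 clones, where 1952 had an unadjusted p under 0.05. It was passed by 1674 (5.97%) for the control for Lin-28B against the control for Ago2. These counts rest on 2 residual degrees of freedom, from the spread between clones only. Moderation of the variances added 2.54 prior degrees of freedom, drawn from the same spread over all kept probes. Single arrays moved the counts. Without Ago2 clone 2 the Ago2 comparison had 64. Without Lin-28B clone 1 or clone 2 the Lin-28B comparison and that of the controls had 0. Without Ago2 clone 1 or clone 2 the Lin-28B comparison had 2497 or 2380 and that of the controls 4125 or 3997.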

How the data were processed

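One table, deposited by the authors, gives intensities on a linear scale for 6 arrays of H1299 derivatives. Per the labels' protocols, Trizol was used to extract RNA, and biotinylated cRNA was made with a MessageAmp kit (Ambion). How the arrays were scanned, background-corrected and normalized is not given in the sources used here. Detection calls were not used. All values were above 0 and the sorted values differed between arrays. A background level, with array medians near 64, was left in, which compresses the folds of dim probes far more than those of TMEM158.

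Intensities were floored at 1, shifted by 32, put on the log2 scale and quantile normalized. The filter kept probes that exceeded the median of the array on 2 or more arrays. One linear model with 4 groups was fitted with limma 3.58.1 (R 4.3.3), variances being moderated by empirical Bayes. Descriptions used Python 3.11.15 and pandas 2.3.3. The code of the fit was tested on data simulated from its own model, which does not test the counts given here. An exact permutation test was not used, because 1 control against 2 clones leaves too few arrangements. No label states separate cultures or hybridizations of the clones, so p-values measure the spread between these arrays only.

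TMEM158 and the gene lists were chosen with earlier results of these data known. The lists (RAS and ERK pathway, ERK output, senescence, let-7 targets, transfected genes, cell type markers) were not analysed here, because a table pairing probes with genes was not used here. Probes were named by a rule: the highest and the lowest Pearson r with TMEM158 and the smallest distance between centred profiles, among kept probes with a range of at least 1. For lack of gene names, those printed were limited to 2 like and 2 reverse probes. The precision is limited by the number of arrays.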

Additional observations from a re-analysis of the deposited data

Results flagged for a closer look

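TMEM158 moved in opposite directions in the 2 transfections: both Ago2 clones lay above their control, by 3.25 log2 units each, and both Lin-28B clones lay below theirs, at -1.68 and -1.32. The difference between the mean changes was 4.75 on the log2 scale. It was not tested here, because the probe was chosen on these values. It combines a difference of -1.98 between Lin-28B and Ago2 clones with one of 2.77 between the 2 single control arrays, Lin-28B over Ago2. The opposite directions depend on the control used. Against the control for Ago2 the Lin-28B clones were 1.27 higher, as the Ago2 clones were also higher. Against the control for Lin-28B the Ago2 clones were 0.48 higher and the Lin-28B clones lower.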

How the results depend on the processing

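The 4 differences of TMEM158 kept their direction under all 10 alternatives run for each. The Ago2 difference, 3.25 here, was 3.27 with an offset of 1, 3.19 with an offset of 100, 3.22 without normalization between arrays, 3.29 with arrays shifted to a common median and 3.24 with cyclic loess. It ranged from 3.24 to 3.26 when 1 clone at a time was left out. The Ago2 clones differ so little that most of these shifts exceed their SD of 0.0039. The Lin-28B difference ranged from -1.69 to -1.32, that between Lin-28B and Ago2 clones from -2.17 to -1.80, and that between the controls from 2.63 to 2.89. These 3 moved by less than the SD of the Lin-28B clones, 0.255. For leaving out 1 of 2 clones this was nearly fixed beforehand, since the mean of 2 then moves by less than their SD. The controls have no spread of their own, and against the SD of the Ago2 clones most such shifts are larger. In the direct comparison of clones, an offset of 1 put 1 probe further apart than TMEM158, and in the Ago2 comparison an offset of 100 left 2 such probes of 4. The next values count probes passing the adjusted threshold in limma. For the Lin-28B comparison, 463 became 801 with an offset of 1, 0 with an offset of 100, 1 with cyclic loess, 795 with the stricter filter at the 70th percentile, 721 with an intensity trend and 1 with robust moderation. The count between controls, 1674, became 1003 with an offset of 100. For Ago2 the count of 0 became 2 with the stricter filter and 161 with the trend, and for Lin-28B against Ago2 clones it became 2 with the trend. Leaving out 1 clone gave 0 to 64 calls for Ago2, 0 to 2497 for Lin-28B, 0 to 4125 for the controls and 0 for the clones against each other. The cause of these shifts was not tested. The clone numbers are shared between transfections but the labels do not pair them, and the differences between clones 1 and 2 correlated at -0.204 across probes. A replicate block by clone number was also run, with both control arrays placed with the clones numbered 1, a placement that no label gives. The Ago2 difference of TMEM158 was then 3.16. The block term is shared by both transfections, so this value also takes in the gap of 0.36 between the Lin-28B clones. With the block, which leaves fewer residual degrees of freedom, the Lin-28B and control comparisons had 0 calls and 0 calls.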
